A study of Mus musculus with 6 samples.

Results

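The CLIC genes encode the chloride intracellular channel proteins and the ERM genes encode ezrin, radixin and moesin. The 8 genes described here, Clic1, Clic3, Clic4, Clic5, Clic6, Ezr, Rdx and Msn, were taken by symbol from a table of 13931 genes measured by RNA-sequencing in newborn mouse lenses, and all 8 were found in it. Clic5 was chosen by its log2 fold-change in this very comparison, where it was already known to be among the most reduced genes, and the others were added by family name. The difference of any of the 8 between the groups is therefore given as a description, with no test, and where a member is said to pass the cut-offs below, this too only describes it. Whole lenses were micro-dissected at postnatal day 0, the day of birth, from mice of mixed C57BL/6 and FVB background, and the study pooled 2 lenses for each of 3 control and 3 Celf1cKO libraries. Celf1cKO mice carried a germline knockout allele of Celf1 (Celf1lacZKI), a conditional allele with loxP sites around an exon (Celf1flox) and the Pax6GFPCre transgene, which drives Cre in the lens from the placode stage. The labels give the controls as Celf1lacZKI/+, and so as carrying the same germline knockout allele, whereas the study's methods name Celf1flox mice without Cre unless noted otherwise. The control genotype was not settled from these sources. The p-values below measure the spread between these 6 pools, and values of single libraries are given in the order of their numbers, 1 to 3. The unit is log2 CPM, the base-2 logarithm of reads scaled by library size.

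Ezrin, radixin and moesin link actin filaments to the plasma membrane. Their N-terminal FERM domain binds membrane proteins and lipid, their C-terminal end binds actin, and phosphorylation of a C-terminal threonine holds them in the open, active form. CLIC proteins share the fold of glutathione transferases, are found both soluble and at membranes, and CLIC5 is a partner of ERM proteins: it works with radixin at the base of hair cell stereocilia and with ezrin in the foot processes of kidney podocytes. In lens fiber cells, ezrin is part of a membrane complex with periplakin, periaxin and desmoyokin. CELF1 is an RNA-binding protein that prefers GU-rich sequence, often in 3′ UTRs.

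The codons below are shown because they carry the residue by which each family is best known. In the CLIC genes the capitals mark the codon of the cysteine in the conserved glutaredoxin-like site, and in the ERM genes they mark the codon of the regulatory threonine. Each stretch of 27 bases was read 5′ to 3′ on the coding strand from the principal transcript in GENCODE M21 (GRCm38) and lies within 1 coding exon.
Clic1: TGCcccttctcccagagactgttcatg
Clic3: TGCccttcctgtcagcggctcttcatg
Clic4: TGCcccttttcacagaggctcttcatg
Clic5: TGTcccttctctcagcgtctcttcatg
Clic6: TGCccattttcacagcgtctctttatg
Ezr: aagtataagACGctgcggcaaatcagg
Rdx: aagtacaagACCcttcggcagattcga
Msn: aaatacaagACCctgcgccagatccgg

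The stretch of Clic5 lies at chr17:44237163-44237189 on the + strand and its capitals encode cysteine 32, and that of Msn lies at chrX:96166563-96166589 on the + strand and encodes threonine 558. The cysteine is residue 24 in CLIC1, 23 in CLIC3, 35 in CLIC4 and 379 in CLIC6, and the threonine is residue 567 in ezrin and 564 in radixin. CLIC6 has 596 residues because of a long N-terminal extension, against 237 to 253 in the other 4 CLIC proteins, and the ERM proteins have 577 to 586. Over aligned coding bases, Clic4 and Clic5 were 73.3% identical and Ezr and Msn were 74.7% identical. The longest run of identical bases was 23 between transcripts of Clic4 and Clic5 and 32 between transcripts of Ezr and Msn, and only uniquely mapped reads were counted.

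The GU-rich stretches of the 3′ UTRs of Clic5 and Msn, the members with the largest differences of each sign at more than a few reads, are shown because CELF1 prefers such sequence. Each is the window of 30 bases with most TGT in the 3′ UTR of the principal transcript, and the capitals mark every TGT, overlaps included.
Clic5: TGTGTGTGTGTGTGTGTGTGTGTGTGTGTg
Msn: cttacTGTTGTcctctgggactcaTGTGTg

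The window of Clic5 covers bases 801 to 830 of its 3′ UTR, at chr17:44276182-44276211 on the + strand, and holds 14 TGT. The window of Msn covers bases 326 to 355, at chrX:96166960-96166989 on the + strand, and holds 4. The 3′ UTR of Clic5 is 4791 bases long, and the motif TGTGTG, searched on the transcript strand with overlaps counted, occurred 22 times in it. The window of Clic5 is an unbroken TG repeat in which overlapping matches are counted many times, so the 22 are not all separate sites. Among 742 genes of the table with a 3′ UTR of 0.8 to 1.2 times that length, 96.1% held at least 1 match, the median was 4 matches and 10.1% held as many as Clic5. Msn had 2 matches in 1918 bases, Clic4 had 1 in 3132, Rdx had 1 in 2250, and Ezr, Clic6 and Clic1 had none. The motif TGTTTG occurred 3 times in Clic5, against a median of 3 among the genes of similar length, 3 times in Rdx, once each in Clic4, Ezr and Msn, and not in Clic1 or Clic6. The 53 bases of the Clic3 3′ UTR were too short to be counted. A match describes the sequence only, and no binding was measured here.

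Between 40694454 and 44387151 reads were counted on genes per library, and crystallin genes took 45.8% to 46.9% of them in control lenses and 34.7% to 38.5% in Celf1cKO lenses. Celf1 itself was at 9.95, 9.94 and 9.34 log2 CPM in the controls and at 8.93, 7.66 and 7.83 in Celf1cKO lenses, so that Celf1cKO library 1 kept the highest level of its group (log2 fold-change -1.60, standard error 0.33, adjusted p = 0.0269, limma with Benjamini-Hochberg adjustment over all genes). Control libraries 1 and 2 held 5501 and 5340 reads of 4 Y-linked genes, whereas control library 3 and the 3 Celf1cKO libraries held 15 to 22. The same 4 libraries had Xist at 8.22 to 9.88 log2 CPM, against 2.31 and -1.44 in control libraries 1 and 2. The sex of the pools and the genotype are thus partly confounded. The members are given below also as control library 3 alone against the 3 Celf1cKO libraries, a comparison of pools with few Y-linked reads that was added after seeing the data. Adding the sex of the pools to the model gave the same fold-changes as that comparison, and then 16 genes of the table were called in place of 1030, with no member and no gene of the partner, stereocilia, FERM-domain or neighbour lists among them. Calls follow the cut-offs of the study: an adjusted p from limma under 0.05, a change of more than 0.58 on the log2 scale up or down, and an average log2 CPM above 1.

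Of the 8 members, 2 passed these cut-offs: Clic5 was lower and Msn was higher in Celf1cKO lenses. Over all genes 7.39% passed, 4.77% higher and 2.63% lower, and 9.68% of those above the expression cut-off. Both also passed with the replicate number as a block, where 9.18% of all genes did, and in limma's voom test on the recovered reads, where 7.55% did. The groups did not overlap for 3 members, Clic5, Msn and Clic3, and did not overlap for 36.5% of all genes. Since Clic5 was chosen for this contrast, nothing is read from either count. The members' median log2 fold-change was 0.01 and that of all genes was -0.04, with -1.16 and 0.82 as the 5th and 95th percentiles. Of the members, 6 had an average log2 CPM above 1, and Clic3 and Clic6 did not.

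**Figure D1:**
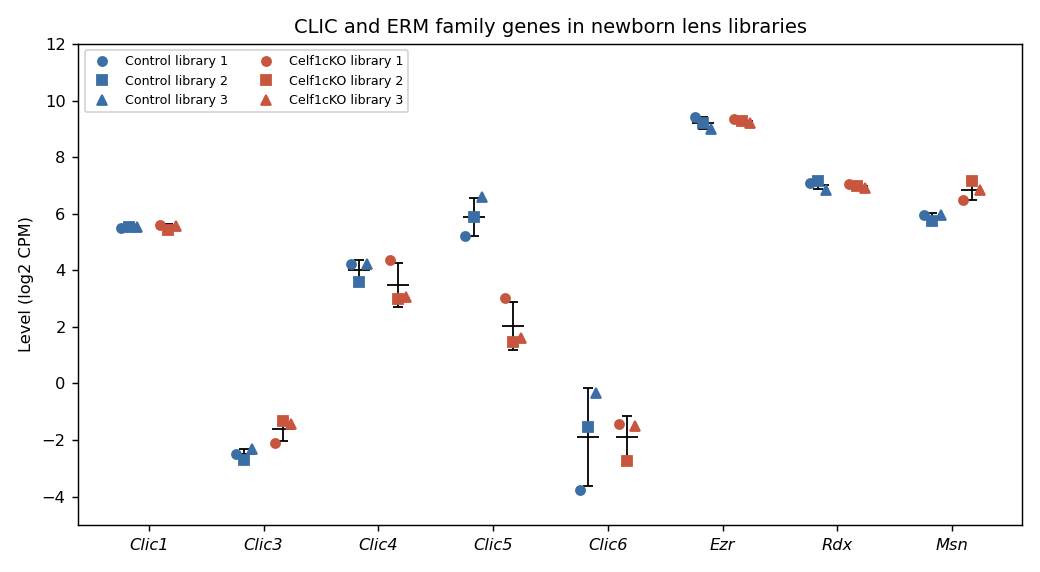
Level of the 8 CLIC and ERM genes in each library, in log2 CPM on the vertical axis, with control libraries in blue and Celf1cKO libraries in red; symbols mark the library number, and black bars give the mean and SD of 3 libraries. Clic5 separates the groups furthest, at 5.22 to 6.58 against 1.47 to 3.01, Msn is the other well-expressed gene whose groups do not overlap, and Clic1, Ezr and Rdx overlap within a narrow range.

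Clic5 (ENSMUSG00000023959) spans 91589 bases of the + strand of chromosome 17, from 44188584 to 44280172. It was at 5.22, 5.89 and 6.58 log2 CPM in the controls and 3.01, 1.47 and 1.62 in Celf1cKO lenses. No Celf1cKO library reached the lowest control, and both groups were wide. The controls had 1425, 2197 and 3754 reads, and the Celf1cKO libraries had 343, 132 and 149 reads, so the transcript remained well above 3 reads in each. The means were 5.89 ± 0.68 and 2.03 ± 0.85 log2 CPM (SD, n = 3), which differed by -3.86 on the log2 scale (standard error 0.47), or 14.6-fold lower in Celf1cKO lenses. Of all genes, 9 (0.0646%) had a log2 fold-change as low as this. Control library 3, whose pool had few Y-linked reads, held the most Clic5, and against it alone the log2 fold-change was -4.55. Within the Celf1cKO group library 1 had the most Celf1 and the most Clic5. Control library 3 had the least Celf1 of the controls and the most Clic5 of all. These are single libraries, and a relation of Clic5 to the level of Celf1 was not tested. Leaving out 1 library at a time gave log2 fold-changes of -4.35 to -3.52, and Clic5 did not pass the cut-offs without control library 2 (-3.87) or without Celf1cKO library 3 (-3.66), when only 1 gene of the whole table passed.

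Clic1 (chromosome 17, 35049966 to 35058749, + strand), a CLIC gene that many tissues express, was nearly the same in every library. It was at 5.49, 5.52 and 5.52 log2 CPM in the controls and 5.59, 5.43 and 5.57 in Celf1cKO lenses. The groups overlapped, and the log2 fold-change was 0.02 (standard error 0.09). The sign depended on the scaling, at 0.25 when libraries were scaled by their total reads and -0.06 after quantile normalization.

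Clic4 (chromosome 4, 135213969 to 135272814, - strand), which acts in the formation of blood vessel lumens and moves between cytoplasm, membrane and nucleus, split the Celf1cKO group. It was at 4.21, 3.58 and 4.23 log2 CPM in the controls and 4.37, 2.97 and 3.06 in Celf1cKO lenses. Celf1cKO library 1 was above all controls and Celf1cKO libraries 2 and 3 were below all controls. The log2 fold-change was -0.54 (standard error 0.38). It was -0.99 without Celf1cKO library 1, when Clic4 was 1 of the 1916 genes that passed the cut-offs. The summed level of 10 endothelial marker genes, such as Pecam1 and Cdh5, was 153, 118 and 130 CPM in the controls and 147, 25.9 and 67.4 CPM in Celf1cKO lenses, so that Celf1cKO library 1 lay within the controls and the other two below them. All 10 were in the table, their median log2 fold-change was -1.21, and 0 were called by limma. The part of blood vessel cells in the values of Clic4 was not tested. In these bulk samples, fewer cells of a type and less RNA per cell cannot be told apart.

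Clic3 and Clic6 were near the limit of detection. Clic3 (chromosome 2, 25456838 to 25458776, + strand), first known from its binding to a MAP kinase, had 5, 4 and 6 reads in the controls and 8, 17 and 16 reads in Celf1cKO lenses. The groups did not overlap, but the control counts lie just above the 3 reads taken as the detection floor. The log2 fold-change was 0.88 (standard error 0.41) on the deposited scale, whose prior count draws low values together. Apart from left-out libraries, the alternatives gave 0.19 to 1.08. The lowest came from log2(CPM + 1), whose added 1 CPM draws low values together more than the prior count does. Paxx is annotated on the opposite strand over the whole of Clic3 without sharing exon bases. Clic6 (chromosome 16, 92485736 to 92541243, + strand), a CLIC gene of secretory epithelia, had 1, 11 and 29 reads in the controls and 14, 5 and 15 reads in the Celf1cKO libraries. The controls spanned the Celf1cKO values entirely, and the fitted log2 fold-change of 0.00 (standard error 0.87) was -0.94 without control library 1 and 0.77 without control library 3, so it gives no direction.

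Ezr (chromosome 17, 6738041 to 6782784, - strand), which encodes ezrin, the ERM protein of epithelial microvilli, was the most abundant member. It was at 9.42, 9.22 and 9.0 log2 CPM in the controls and 9.36, 9.29 and 9.20 in Celf1cKO lenses. The Celf1cKO values all lay within the range of the controls, and the log2 fold-change was 0.07 (standard error 0.12). Rdx (chromosome 9, 52047173 to 52088735, + strand), which encodes radixin, was at 7.10, 7.14 and 6.83 log2 CPM in the controls and 7.05, 6.97 and 6.92 in Celf1cKO lenses. Here too the Celf1cKO values lay within the controls, and the difference on the log2 scale was -0.05 (standard error 0.10). Against control library 3 alone, which had the lowest Ezr and Rdx of its group, the log2 fold-changes were 0.29 and 0.15. Under total-read scaling, which raised the median gene by 0.226, they were 0.30 and 0.18, so the sign for Rdx is not settled. The end of Ezr overlaps that of Sytl3 on the opposite strand by exon bases. The libraries were strand-specific, but the strand setting of the counting is not given in the sources used here.

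Msn (ENSMUSG00000031207) spans 72511 bases of the + strand of the X chromosome, from 96096042 to 96168552, and encodes moesin, the ERM protein that predominates in endothelium and leukocytes. Gm24718, a small RNA gene, is annotated within it on the opposite strand. Msn was at 5.96, 5.76 and 5.96 log2 CPM in the controls and 6.47, 7.16 and 6.85 in Celf1cKO lenses. All Celf1cKO libraries were above all controls, and the controls were close together. The reads were 2389, 2013 and 2454 in the controls and 3812, 6953 and 5682 in the Celf1cKO libraries. The means were 5.90 ± 0.12 and 6.83 ± 0.34 log2 CPM (SD, n = 3), which differed by 0.93 on the log2 scale (standard error 0.17), or 1.91-fold higher in Celf1cKO lenses. Of all genes, 3.8% had a log2 fold-change as high as this. Msn is X-linked, and against control library 3 alone, the control pool with few Y-linked reads, its log2 fold-change was 0.87. The sums of the endothelial markers are given above with Clic4, and the 8 of 10 macrophage and leukocyte markers in the table summed to 5.19 to 11.0 CPM in controls and 6.34 to 10.4 CPM in Celf1cKO lenses. Ptprc and Aif1 of that list were not in the table, and the part of either cell type in the level of Msn was not tested. Msn no longer passed the cut-offs when the prior variance was not allowed to follow expression, or without any 1 of the 3 control libraries or Celf1cKO library 3. Its log2 fold-change stayed between 0.77 and 1.11 when any 1 of the 6 libraries was left out.

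To compare the genes with each other, CPM was divided by the length of the joined exons in kilobases. In control lenses the order of levels was Ezr at 181 ± 26.1 CPM per kb (SD, n = 3), Rdx at 28.2 ± 3.18, Clic1 at 25.3 ± 0.341, Msn at 9.42 ± 0.747, Clic5 at 7.28 ± 3.34, Clic4 at 2.49 ± 0.589, Clic3 at 0.129 ± 0.0221 and Clic6 at 0.0902 ± 0.0916. The library values overlapped between the neighbours Rdx and Clic1, Msn and Clic5, and Clic3 and Clic6, and these pairs cannot be ordered. In Celf1cKO lenses Ezr was at 190 ± 11.0 CPM per kb, Rdx at 27.2 ± 1.27, Clic1 at 25.7 ± 1.54 and Msn at 18.3 ± 4.30. Clic5, at 0.521 ± 0.337 CPM per kb, came after Clic4, at 1.86 ± 1.1, in Celf1cKO lenses.

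The total and the make-up of the CLIC family are given as a description, since both include the fall by which Clic5 was chosen. Mean Clic5 was 7.28 CPM per kb in controls and 0.521 in Celf1cKO lenses. Clic1 was at 25.3 and 25.7, and Clic4 at 2.49 and 1.86. The 5 CLIC genes summed to 35.3 ± 3.85 CPM per kb in control lenses, with libraries from 32.1 to 39.5, and to 28.5 ± 2.63 in Celf1cKO lenses, with libraries from 25.8 to 31.1. Clic5 made up 13.2%, 19.7% and 27.5% of this sum in the controls and 2.93%, 1.2% and 1.21% in Celf1cKO lenses. Clic1 made up 72.2% ± 6.85 in controls and 90.6% ± 3.88 in Celf1cKO lenses (SD, n = 3), and since its level did not separate the groups, its larger share goes with the smaller total. The ERM genes summed to 219 ± 28.7 CPM per kb in controls and 235 ± 11.0 in Celf1cKO lenses, with overlapping libraries. Ezr made up 82.7% ± 1.14 and 80.6% ± 1.61 of the ERM sum, and Rdx 12.9% ± 0.922 and 11.6% ± 0.307. Msn made up 3.99%, 3.89% and 5.19% in the controls and 5.78%, 9.41% and 8.19% in Celf1cKO lenses, so the libraries did not overlap but Msn remained the smallest of the ERM genes. With the length of the principal transcript in place of the joined exons, chosen after seeing the data, the share of Clic5 was 23.0% ± 7.86 against 2.11% ± 1.15 and that of Msn 6.71% ± 1.08 against 11.8% ± 2.68, and Msn was then level with Rdx in Celf1cKO lenses, at 30.1 ± 7.07 and 28.8 ± 1.34 CPM per kb.

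**Figure D2:**
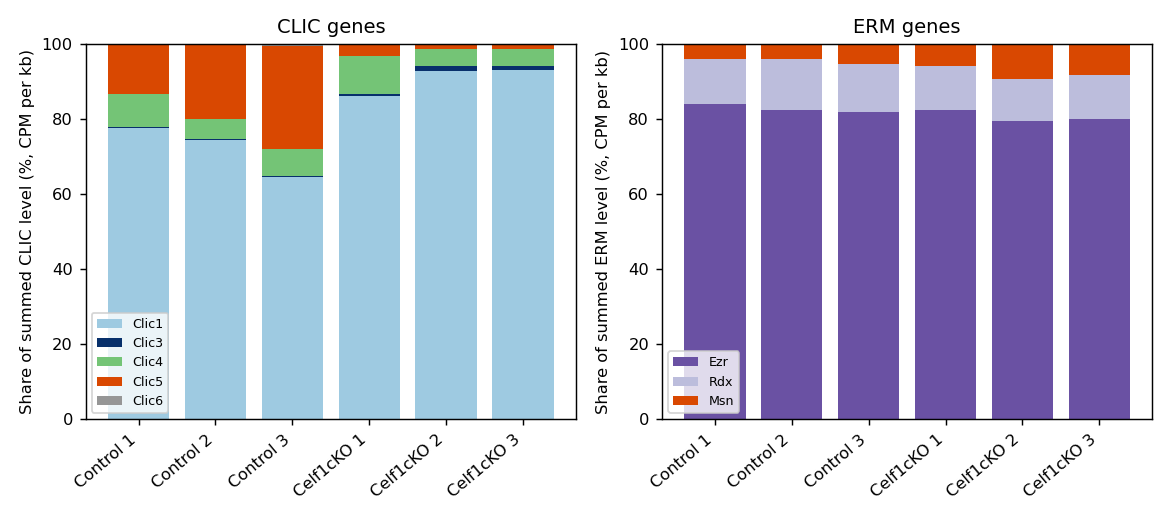
Share of each gene in the summed level of its family in each of the 6 libraries, in percent of CPM per kb of joined exons, with CLIC genes on the left and ERM genes on the right. Clic5 (orange, left) takes 13.2% to 27.5% in control libraries and 1.2% to 2.93% in Celf1cKO libraries, and Msn (orange, right) takes 3.89% to 5.19% and 5.78% to 9.41%; Clic6 is too small to be seen.

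The summed markers of the lens itself were lower in Celf1cKO lenses, beside which the values of Clic5 have to be read. Each sum is carried mainly by its most abundant genes. The 7 epithelial markers summed to 2100 to 2420 CPM in controls and 951 to 1590 CPM in Celf1cKO lenses. Foxe3, Sparc and Pdgfra were called lower. Sparc, at a control mean of 10.69 log2 CPM, weighs most in this sum. Pax6 was at 7.37 (log2 fold-change -0.37, not called) and Foxe3 at 4.95 log2 CPM in controls. The 11 of 12 fiber cell markers in the table summed to 297000 to 338000 CPM and 237000 to 251000 CPM. Bfsp1, Gja3 and Dnase2b were called lower, and 9 of the 11 had a lower mean. Cryaa and Cryba1, at control means of 17.21 and 16.45 log2 CPM, weigh most in the fiber sum, and neither was called. The median log2 fold-change was -1.13 over the epithelial and -0.37 over the fiber cell markers. The part of either cell type in the level of Clic5 was not tested. Of other tissues, the retina genes Rcvrn and Elavl4 had log2 fold-changes of -0.68 and -1.86, and Elavl4 was called lower (adjusted p = 0.0269, limma). The 8 of 10 pigment and ciliary epithelium markers in the table summed to 4.17 to 29.1 CPM in controls and 7.36 to 28.5 CPM in Celf1cKO lenses, with Mlana at 0 reads in at least 1 library. Of 8 cornea and skin epithelium markers only Perp was in the table, at 21.4 to 23.0 and 29.2 to 33.4 CPM, and of 5 erythroid markers only Alas2, at 0.431 to 1.35 and 0.0412 to 0.489 CPM.

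**Figure D3:**
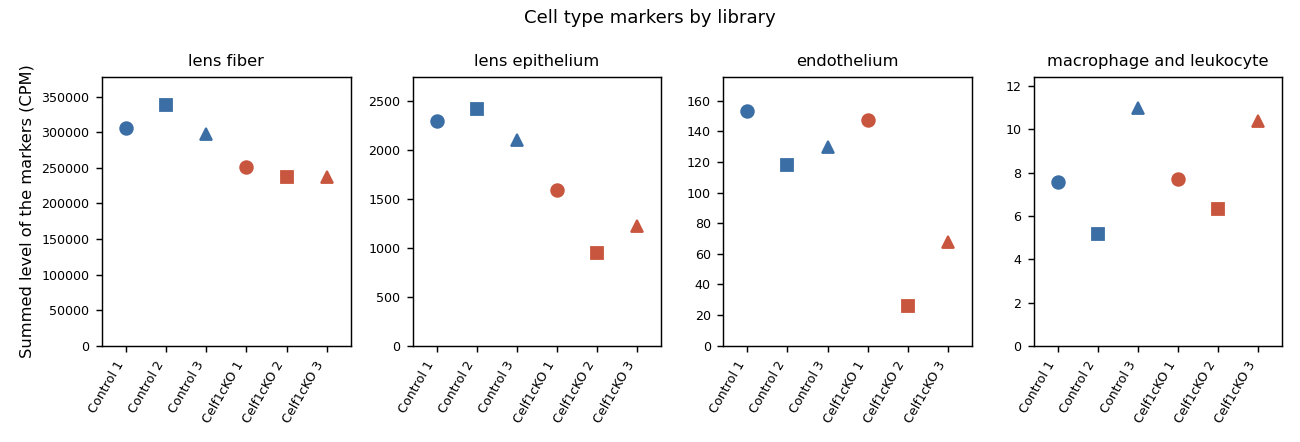
Summed level of the markers of lens fiber cells, lens epithelium, endothelium, and macrophages and leukocytes in each library, in CPM on linear axes from 0, with controls in blue and Celf1cKO in red. Fiber and epithelial sums are below all controls in all 3 Celf1cKO libraries, the endothelial sum of Celf1cKO library 1 lies within the controls at 147 CPM, and the macrophage sums overlap.

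The proteins that activate ERM proteins or are bound by them were looked at through a list of 26 genes, of which 24 were in the table and 19 had an average log2 CPM above 1. By limma 0 of them were called in either direction, against 7.39% of all genes. At an unadjusted p under 0.05, 5 were higher and 3 lower (29.9% of all genes passed this), and voom also called 0. The median log2 fold-change was -0.14, with values from -1.19 to 0.76, beside -0.04 for all genes. In the list, 2 genes had an adjusted p under 0.05 but a log2 fold-change under the cut-off. These were Arhgdia, which encodes a GDP dissociation inhibitor that ERM proteins bind, at 0.55 (adjusted p = 0.0308), and Ppp1r12a, which encodes the targeting subunit of the myosin phosphatase that also dephosphorylates moesin, at 0.37 (adjusted p = 0.0316). Stk10, a kinase of the ERM threonine, was at 2.50, 2.91 and 3.22 log2 CPM in the controls and 2.34, 1.22 and 1.51 in Celf1cKO lenses, which did not overlap, yet missed the cut-off (log2 fold-change -1.19, adjusted p = 0.0585). Slk, its close relative, showed a log2 fold-change of 0.11.

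Among membrane proteins that ERM proteins bind, Cd44, the hyaluronan receptor, showed a log2 fold-change of 0.76 (adjusted p = 0.0945) and Pdpn, podoplanin, -1.06 (adjusted p = 0.0942), neither past the cut-off. Podxl, podocalyxin, was at 4.93, 3.97 and 4.93 log2 CPM in the controls and 4.38, 2.03 and 3.86 in Celf1cKO lenses. The groups overlapped (log2 fold-change -1.19, adjusted p = 0.217), and it passed the cut-offs only with the replicate number as a block (adjusted p = 0.0359, limma). Without Celf1cKO library 1, 5 genes of this list were called, Stk10 (-1.51) and Pdpn (-1.47) lower, and Cd44 (0.97), Arhgdia (0.68) and Pip5k1b (0.65), an enzyme that makes the lipid to which FERM domains bind, higher.

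CLIC5 and radixin meet other proteins at the base of stereocilia, and 6 of 9 listed stereocilia genes were in the table. Of these, 1 was called, beside 7.39% of all genes: Espn, which encodes the actin-bundling protein espin, rose from 4.35 ± 0.31 to 5.21 ± 0.06 log2 CPM (SD, n = 3; log2 fold-change 0.87, adjusted p = 0.0193, limma). Its 3 Celf1cKO libraries, at 5.14, 5.23 and 5.26 log2 CPM, were all above the controls at 4.47, 3.99 and 4.57. The call was lost without control library 2, Celf1cKO library 2 or Celf1cKO library 3, when the count was 0. Myo6, the unconventional myosin that works with CLIC5 there, showed a log2 fold-change of -0.44 (adjusted p = 0.0583), Ptprq, a receptor-type phosphatase, -1.13 (adjusted p = 0.0728) at an average log2 CPM of -1.09, and Tprn, taperin, 0.48 (adjusted p = 0.117). Triobp was at -0.04 and Cib2 at -0.30. The list's median was -0.17.

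The FERM domain of ezrin, radixin and moesin is shared with many other proteins, and 42 of 47 listed genes with such a domain were in the table. Of these, 3 rose and 2 fell (limma), 5 of 42 beside 7.39% of all genes. Frmd8, which encodes a cofactor of the sheddase-activating iRhom proteins, rose by 1.12 on the log2 scale (adjusted p = 0.0196), Epb41l4b by 0.93 (adjusted p = 0.0440) and Epb41l5, which acts in epithelial polarity, by 0.92 (adjusted p = 0.0349). Frmd6, a regulator of the Hippo pathway, fell by 1.51 (adjusted p = 0.0493) and Ptpn14, a phosphatase that binds YAP, fell by 0.76 (adjusted p = 0.0470), both on the log2 scale. Frmd6 lay at the threshold and was not called by voom (adjusted p = 0.0513), and Myo7b, a myosin of microvilli, was called lower only with the replicate block (log2 fold-change -0.65, adjusted p = 0.0496 against 0.0620 without it). The other 36 had log2 fold-changes between -0.93 and 0.88, and the median of the 42 was 0.03. Nf2, merlin, the nearest relative of the ERM proteins and also in the list of partners, was at 6.96, 6.97 and 6.80 log2 CPM in the controls and 6.72, 6.69 and 6.69 in Celf1cKO lenses (log2 fold-change -0.21, adjusted p = 0.127). The count of 5 became 8 without Celf1cKO library 1, 1 without control library 1 and 0 without each of the other 4 libraries. Over all genes 1916 were called without Celf1cKO library 1, against 1030 with every library kept.

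**Figure D4:**
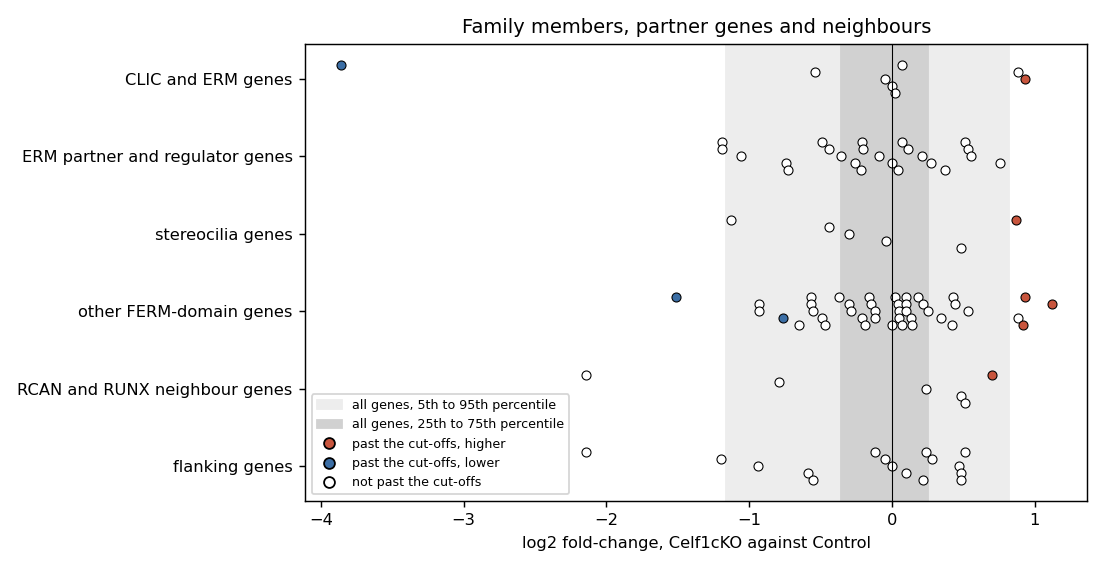
Log2 fold-change of each gene, Celf1cKO against control, on the horizontal axis, by list; filled points passed the cut-offs (red higher, blue lower), and the grey bands give the 5th to 95th and 25th to 75th percentiles of all 13931 genes. Clic5 at -3.86 lies left of every other point, Msn at 0.93 just right of the wider band, and most points of each list lie within the wider band.

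Clic4, Clic5 and Clic6 each lie in a cluster of genes between an Rcan gene, for a regulator of the phosphatase calcineurin, and a Runx gene, for a transcription factor. In the Clic5 cluster, Rcan2 was at 6.57, 6.82 and 7.12 log2 CPM in the controls and 6.55, 5.72 and 5.88 in Celf1cKO lenses. The groups just failed to overlap, and the log2 fold-change of -0.79 missed the cut-off (adjusted p = 0.0689, limma). Without Celf1cKO library 1, Rcan2 was called (-1.04, adjusted p = 0.00852), as 1 of the 1916 genes called in that setting. Runx2, on the other side, showed a log2 fold-change of 0.24 (adjusted p = 0.491). In the Clic4 cluster, Rcan3 rose from 3.43 ± 0.26 to 4.12 ± 0.14 log2 CPM (SD, n = 3; log2 fold-change 0.70, adjusted p = 0.0385, limma), and the call was lost without control library 1 or 2 or Celf1cKO library 2 or 3, or when crystallin reads were left out of the scaling. Runx3, at an average of -1.45 log2 CPM, showed a log2 fold-change of -2.14 (adjusted p = 0.0715). In the Clic6 cluster, Rcan1 was at 0.48 (adjusted p = 0.300) and Runx1, at an average of -1.75 log2 CPM, at 0.51 (adjusted p = 0.693).

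**Figure D5:**
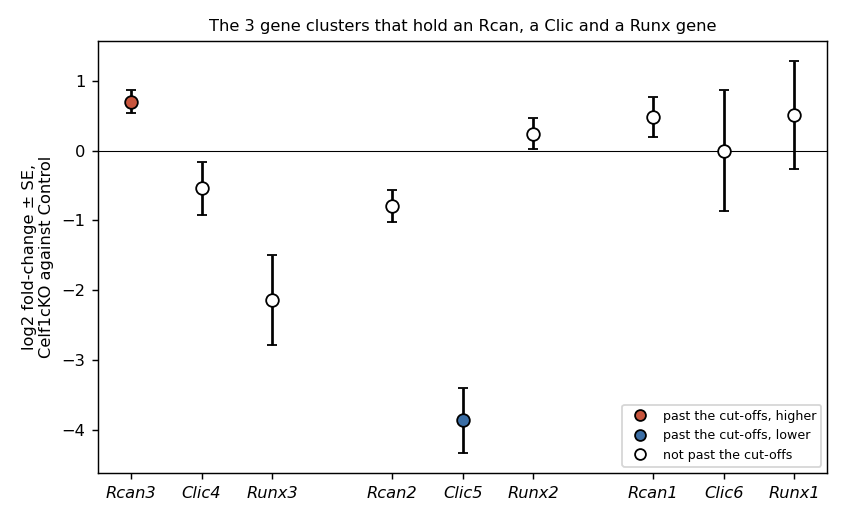
Log2 fold-change with its standard error, Celf1cKO against control, for the Rcan, Clic and Runx gene of each of the 3 clusters; red and blue points passed the cut-offs. Clic5 is far below the Rcan and Runx gene of its cluster, and Rcan3 is the only Rcan or Runx gene that passed.

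The nearest genes of the table on either side of each member made 16 genes. By limma 0 of these were called, as by voom and with the replicate block, and at an unadjusted p under 0.05, 2 were higher and 3 lower, beside 7.39% and 29.9% of all genes. Beside Clic5, Enpp4, which encodes an ectoenzyme, lies before it at a gap of 82774 bases and was at 4.37, 4.62 and 4.08 log2 CPM in the controls and 4.70, 5.06 and 4.77 in Celf1cKO lenses (log2 fold-change 0.48, adjusted p = 0.1). Runx2 follows after 215814 bases. Without Celf1cKO library 1, Ddah2 next to Clic1 (-0.84) and Heph next to Msn (-1.62) were called lower, beside 1916 calls over all genes.

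The profile of Clic5 over the 6 libraries was compared with that of 10639 further genes above the expression cut-off, by the root mean square difference of their log2 CPM values after each gene was centred on its own mean. The 5 most similar genes were Gjb6, which encodes a connexin, at a difference of 0.44, Lgsn (lengsin) at 0.56, Cfap99, named for cilia and flagella, at 0.59, Rsad2 (viperin), known from the interferon response, at 0.61 and Dnase2b, the nuclease of fiber cell nuclei, at 0.61. Their log2 fold-changes were -3.28, -4.37, -2.71, -2.94 and -2.81. In each of them, as in Clic5, Celf1cKO library 1 was the highest and Celf1cKO library 2 the lowest of the Celf1cKO group. In the controls, libraries 1 to 3, Gjb6 was at 1.21, 2.23 and 2.47 log2 CPM and Cfap99 at 1.31, 1.83 and 2.61. Rsad2 was at 2.63, 2.96 and 3.22 and Dnase2b at 7.49, 7.57 and 7.83. All of these rose in the same order of libraries as Clic5, whereas Lgsn, at 5.81, 5.54 and 5.83, did not. The 5 genes were chosen for their likeness to Clic5 over these same 6 libraries. Nothing is therefore read from their shared order of libraries, and no test of their difference is given.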

How the data were processed

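RNA was sequenced from 3 control and 3 Celf1cKO lens pools. The authors trimmed strand-specific paired-end reads, aligned them with STAR 2.7.8a to GRCm38.p6, kept uniquely mapped reads, counted them with featureCounts 2.0.0, removed genes of low CPM and normalized with edgeR. They deposited log2 CPM values per library and the average log2 CPM. The deposited columns of the authors' own comparison, a log2 fold-change, an F score, a p-value and an FDR, were not used, and the average log2 CPM served as the expression cut-off, which 10640 genes passed. The prior count behind the log2 values is 2. Whole reads could be recovered from the spacing of these values, of which 100% came out whole within 0.1 read. They were used for depth, CPM levels and alternatives. The table's rows have no entries without a gene.

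The members and lists were chosen with earlier results of these data known. Groups were taken from the labels. All genes were fitted on the deposited log2 CPM with limma 3.58.1 in R 4.3.3 (trend, prior degrees of freedom 3.4), and p-values were adjusted by Benjamini-Hochberg over 13931 genes. No set test was run. The labels share replicate numbers between the groups, and the deviations from the group means of same-numbered libraries correlated at 0.302, 0.417 and 0.348 over genes with an average log2 CPM above 1, so a fit with the replicate number as a block is given where it changes a call. The study describes no pairing.

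Named were all members, every list gene past the cut-offs, all Rcan and Runx genes, the genes flanking Clic5, the 5 genes most like Clic5, and Celf1. Stk10, Slk, Arhgdia, Ppp1r12a, Pip5k1b, Cd44, Pdpn, Podxl, Nf2, Myo7b, Myo6, Ptprq, Tprn, Triobp, Cib2, Ddah2 and Heph, and markers, were named after their values were seen. The summed level of the retina markers is not reported here. Positions, transcripts and 3′ UTRs came from GENCODE M21. The procedure was tested on simulated counts in which 200 genes were changed by 2 on the log2 scale, up or down. It recovered 100%, 100% and 52% of them at dispersions, a measure of spread between libraries, of 0.01, 0.05 and 0.2. Of its calls, 0%, 3.846% and 5.455% were false. Changes can thus be missed where the spread is wide. The alternatives were the replicate block, other variance models, scalings and cut-offs, log2(CPM + 1), voom with the authors' scaling, and each library left out. The sex of the pools and the transcript length were added after seeing the data. The planned edgeR test on recovered reads was not run, and voom was run on them in its place. Each pool gives 1 value per gene, and the spread between pools was used as the error.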

Additional observations from a re-analysis of the deposited data

How the results depend on the processing

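The log2 fold-change of Clic5 stayed negative under every alternative tried, at -4.55 in both fits on the sex of the pools, up to -3.56 under other settings, and -4.35 to -3.52 with 1 library left out. The counts of calls moved more. Over all genes 1030 were called, 421 without a variance trend, 1867 with total-count scaling, 387 at a log2 fold-change cut-off of 1, 16 with the sex of the pools as covariate and 0 with control library 3 alone against the 3 Celf1cKO libraries, a fit in which the lone control is assumed to vary like the other group. Leaving out 1 library gave 1 to 1916. Total-count scaling shifted the median gene by 0.226 and the share of higher calls from 64.5% to 89.1%. The count of 2 members became 1 without a variance trend or at the cut-off of 1, and 0 in both fits on sex, with 0 to 3 over left-out libraries. The count of 3 members without overlap became 6 with total-count scaling, and 3 to 4 over left-out libraries. The replicate block moved the count of ERM partners from 0 to 1 and changed no call of a member. Total-count scaling called 4 ERM partners, 2 stereocilia genes and 2 flanking genes in place of 0, 1 and 0. Without a variance trend the stereocilia, FERM-domain and Rcan and Runx counts of 1, 5 and 1 were all 0, as in both fits on sex. At the cut-off of 1 they were 0, 2 and 0, and after rescaling without crystallin reads the FERM-domain count was 2 and the Rcan and Runx count 0. Over left-out libraries the counts ranged from 0 to 5 for ERM partners, 0 to 1 for stereocilia genes, 0 to 8 for FERM-domain genes, 0 to 2 for Rcan and Runx genes and 0 to 2 for flanking genes. The cause of these changes was not tested. Leaving out 1 library gave fewer calls over all genes, except for Celf1cKO library 1, without which 1916 were called. With 3 pools a group, and 1 control pool with few Y-linked reads, genotype and sex cannot be fully told apart, and Clic3 and Clic6 lie too near the floor of 3 reads to be compared.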
